A study of Mus musculus with 12 samples.

Results

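The effect of curcumin on mammary tumours was read over a design with 2 factors, curcumin and swimming, by setting the 6 RNA sequencing libraries of mice given curcumin against the 6 of mice not given it. All 12 libraries of the series were used, with swimming (no or yes) as a covariate, and 13638 of the 21899 genes in the table passed the filter on low counts and were tested. The libraries with curcumin came from a curcumin group (curcumin in corn oil by gavage at 100 mg/kg, no swimming) and a combination group (the same curcumin, followed by 30 min of swimming). Those without came from a tumour control group (corn oil by gavage, no swimming) and a swimming group (corn oil, followed by 30 min of swimming), and each of the 4 groups held 3 libraries. All mice were BALB/c, 4 to 6 weeks old, and carried tumours grown from 4T1-LUC cells placed under the skin of the chest and abdominal wall. Every group thus received gavage in 200 µL, and none of the 12 libraries came from a mouse without a tumour. The labels give 5 mice a group and do not say whether the 3 libraries of a group are separate tumours, separate animals or parts of 1 sample, so the spread behind each p-value may be technical.

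Curcumin is the yellow polyphenol of turmeric, known in cultured cells for effects on the transcription factors NF-kB and Nrf2. 4T1 is a mouse mammary carcinoma line whose tumours in BALB/c hosts contain fibroblasts, vessels, macrophages and many neutrophils beside the cancer cells. Bulk RNA from such a tumour mixes all of these, and in it fewer cells of a type cannot be told apart from less RNA per cell. The fit answers what differed with curcumin on average over still and swimming mice. It does not by itself say that the difference was alike in both, which is why the values of the 2 swimming strata (curcumin against control, combination against swimming) stand beside it.

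The libraries held 15069348 to 17278826 counts each. Tumour epithelium was present in all of them: Epcam, the epithelial adhesion molecule, stood at 258 to 332 CPM (counts scaled to library size) with curcumin and 277 to 360 CPM without. The spread within groups was unequal. The biological coefficient of variation was 12.4% in curcumin, 6.47% in combination, 26.7% in control and 16.3% in swimming libraries. Set against each group's mean log2 CPM, leaving out the library itself, all 6 libraries with curcumin were closest to their fellow replicates, and of the 6 without only swimming 1 was. Controls 1 and 3 were closest to the curcumin mean, control 2 to the swimming mean, and swimming 2 and 3 to the control mean. The 3 combination libraries differed from each other by more than counting noise, with a coefficient of variation of 5.34% to 7% between pairs. Between pairs of the other groups it was 7.94% to 17.6% for curcumin, 17.3% to 32.5% for control and 12.5% to 22.8% for swimming libraries.

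Tumours with curcumin had more RNA of 19 of 30 type I interferon genes, of 9 of 26 collagen and matrix genes, among them Col5a1, Col12a1, Tnc and Thbs2, and of single genes such as the BMP antagonist Grem1 and the laminin chain Lamc3. They had less RNA of the fibronectin gene Fn1, of the Golgi GTPase gene Rab6b and the keratin gene Krt18, of the apoptosis regulators Bcl2l11 and Bcl2l1, and of 3 ribosomal protein genes. In total 547 genes were called, 259 higher and 288 lower with curcumin, by edgeR's quasi-likelihood test at a Benjamini-Hochberg adjusted p of 0.05 or below. That is 4.01% of the genes tested, 1.9% higher and 2.11% lower. Most changes were small: the median size among called genes was 0.50 on the log2 scale, 333 of the 547 stayed under 1.5-fold, and 87 passed 2-fold (66 higher and 21 lower). The last gene called, Ergic3, had a log2 fold change of -0.39 ± 0.10 (SE) and an adjusted p of 0.04999, and the first not called, Fbxl20, one of -0.36 ± 0.09 and 0.05012. Across all tested genes the median log2 fold change was -0.00032 and 49.9% were positive.

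The count of called genes rested on single libraries and on how the combination libraries are counted. It was 271 without control 2 and between 15 and 21 when any 1 combination library was left out. With the 3 combination libraries summed into 1 sample, 2 genes were called, and both were higher with curcumin. Left out 1 at a time, the other libraries gave 22 (without swimming 1) to 2580 (without control 1), and 26 without curcumin 3. At unadjusted p under 0.05 the main effect held 3731 genes. In the leave-one-out fits that number was 2936 (without combination 3) to 4828 (without control 1). Of the 81 called genes picked by the naming rules given under processing, 11 stayed called whichever single library was left out. These were Apol10b, Avpr1a, Cmpk2, Grem1, Lamc3, Ly6a, Ly6e, Oas2, Prom2, Rab6b and Slc15a3.

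The strata were also read apart. Among called genes higher with curcumin, the median log2 fold change was 0.57 for curcumin over control and 0.79 for combination over swimming. Among those lower it was -0.34 and -0.48. At unadjusted p under 0.05, 1512 genes differed between curcumin and control and 3785 between combination and swimming, and 614 did so in both. All 547 called genes had the same sign in both strata, which being called in the average favours, against 64.4% of all tested genes. Across genes, which are not independent replicates, the log2 fold changes of the strata had a Pearson r of 0.305 and a Spearman rho of 0.365 over 13638 genes. The interaction of curcumin and swimming, which tests whether the strata differ, called 19 genes (0.139%), with 1507 at unadjusted p under 0.05. Fitted on its own, the stratum without swimming called 0 genes with edgeR (931 at unadjusted p under 0.05) and the stratum with swimming called 2728.

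**Figure D1:**
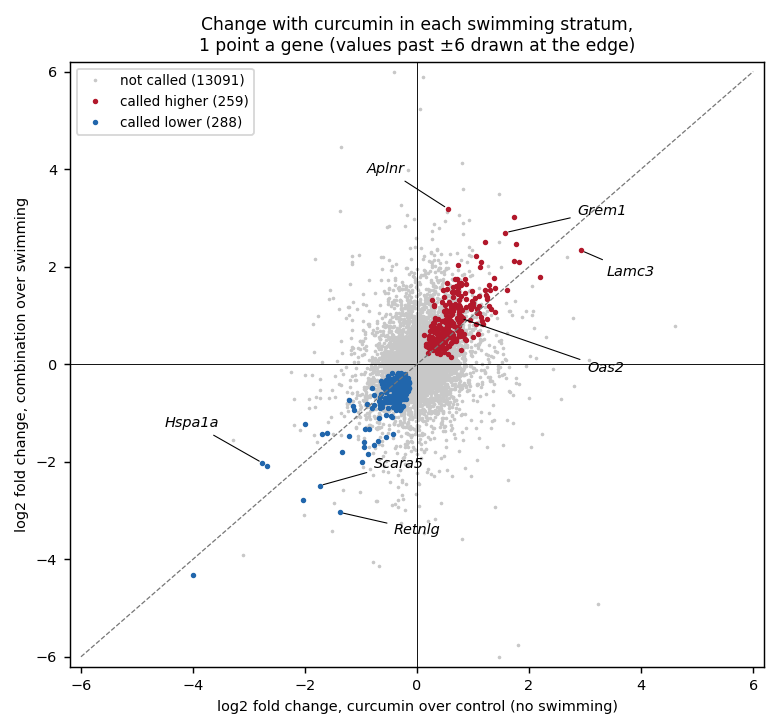
Log2 fold change of each tested gene for curcumin over control (horizontal) and combination over swimming (vertical), with the 259 genes called higher in red, the 288 called lower in blue, the rest in grey and a dashed line of equality. The called genes lie in the quadrants where both strata have the same sign; Lamc3 sits near the line, while Aplnr has 0.55 on the horizontal axis and 3.19 on the vertical.

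Grem1 had the smallest p. It encodes gremlin 1, a secreted protein that binds bone morphogenetic proteins (BMPs) and keeps them from their receptors. Grem1 (ENSMUSG00000074934; chromosome 2, 113576509 to 113588991 on the minus strand, as the table gives it) stood at 93.9, 123 and 105 CPM in curcumin libraries and 139, 140 and 141 CPM in combination libraries, against 35.3, 43.3 and 29.7 CPM in control libraries and 19.7, 31.1 and 13.9 CPM in swimming libraries. Every library with curcumin lay above every library without it, with a wide gap between. The log2 fold change was 2.13 ± 0.23 (SE; adjusted p = 0.0023), made up of 1.57 for curcumin over control and 2.70 for combination over swimming. The difference between these strata was 1.12 ± 0.32 and did not pass the interaction test (adjusted p = 0.21).

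Lamc3 (ENSMUSG00000026840; chromosome 2, 31777303 to 31836551 on the plus strand) encodes the gamma 3 chain of laminins, the cross-shaped proteins of basement membranes. It measured 9.41, 10.3 and 8.93 CPM in curcumin libraries and 11.9, 10.9 and 8.41 CPM in combination libraries, against 1.88, 0.651 and 1.23 CPM in control libraries and 2.34, 2.97 and 0.878 CPM in swimming libraries. The arms did not overlap, which naming for size required. The log2 fold change of 2.62 ± 0.28 (adjusted p = 0.0023) was the largest among the genes named for size. Both strata contributed, at 2.93 and 2.33. Grem1 and Lamc3 were also the 2 genes that passed a test against a 1.5-fold change, and the 2 that stayed called with the combination libraries summed.

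**Figure D2:**
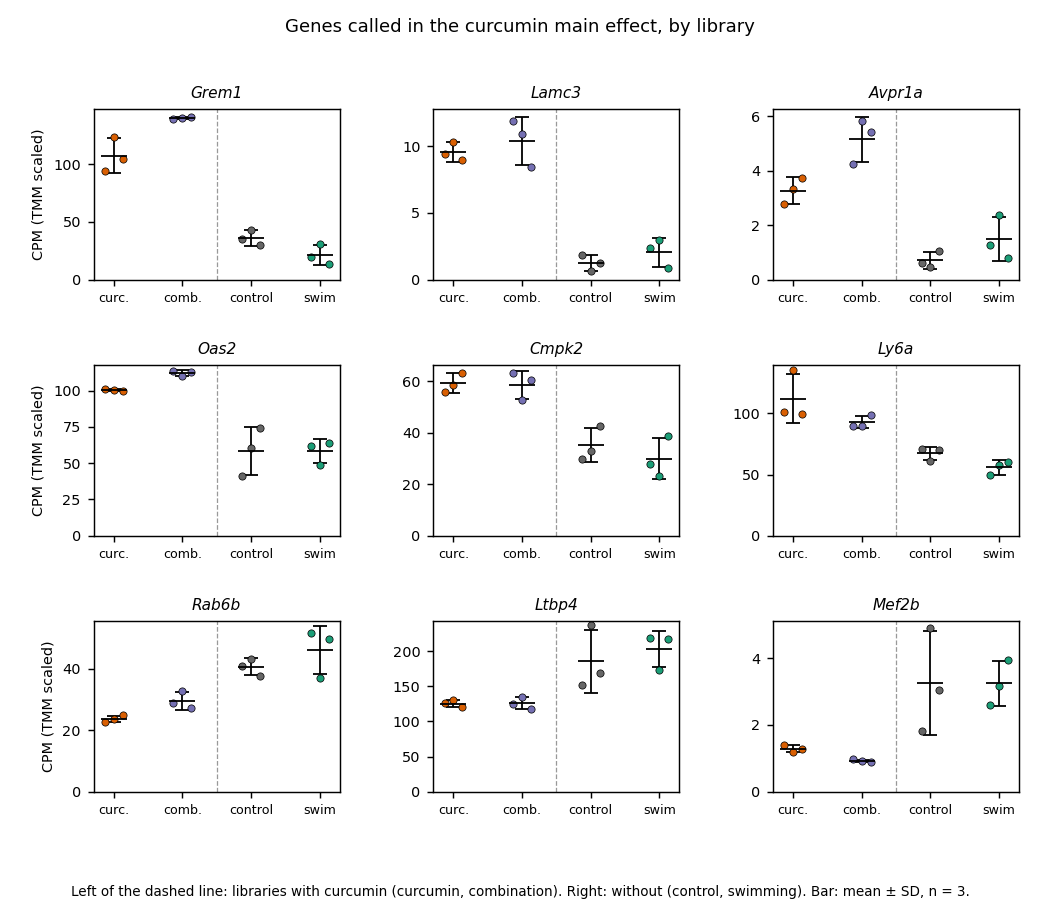
CPM in each of the 12 libraries for 9 genes called in the main effect, with the mean and SD of the 3 libraries of each group; curcumin and combination stand left of the dashed line, control and swimming right of it. In the first 6 panels every library with curcumin is above every library without, and in the 3 of the bottom row every one is below.

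Further genes named for size were higher with curcumin, and arms that did not overlap were a condition of that naming. Avpr1a, the V1a vasopressin receptor, ranged over 2.77 to 5.81 CPM (median 3.98) with curcumin and 0.474 to 2.38 CPM (median 0.933) without, a log2 fold change of 1.98 ± 0.27 (adjusted p = 0.0084). Its lowest library with curcumin exceeded its highest without, though all values were low. Crabp1, which binds retinoic acid in the cytoplasm, ranged over 4.46 to 15.9 CPM (median 8.51) with curcumin and 1.07 to 3.68 CPM (median 2.48) without (1.92 ± 0.29, adjusted p = 0.014). Stra6, the cell surface receptor for retinol-binding protein, ranged over 48.6 to 71.5 CPM (median 57.6) with curcumin and 10.3 to 34.3 CPM (median 25.0) without (1.36 ± 0.26, adjusted p = 0.027). Both had positive values in each stratum, Crabp1 of 1.73 and 2.12 and Stra6 of 1.21 and 1.52. The neighbouring homeobox genes Hoxc4 and Hoxc5 had log2 fold changes of 1.46 ± 0.28 (adjusted p = 0.027) and 1.56 ± 0.32 (adjusted p = 0.029), on medians of 2.48 and 1.54 CPM with curcumin. They lie side by side on the plus strand of chromosome 15, where the table ends Hoxc5 at 102925861 and starts Hoxc4 at 102927366.

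Other genes higher with curcumin differed in how alike their strata were. Pcdh7, a protocadherin, had a log2 fold change of 1.41 ± 0.24, with close values in the strata (1.30 and 1.53). Spats2l stood at 1.62 ± 0.29 with strata of 1.05 and 2.21, and the membrane protein gene Itm2a at 1.37 ± 0.32 with strata of 0.74 and 2.03. Adamtsl2, a secreted matrix glycoprotein, stood at 2.09 ± 0.53 but ranged over 0.727 to 1.64 CPM with curcumin and 0 to 0.584 CPM without, near the limit of what these depths count. Aplnr, the apelin receptor of endothelial cells, was 13.9, 12.4 and 13.4 CPM in curcumin libraries and 32.0, 27.0 and 28.9 CPM in combination libraries, against 7.33, 7.58 and 12.2 CPM in control libraries and 2.41, 5.42 and 1.82 CPM in swimming libraries. Its main effect was 1.81 ± 0.44 (adjusted p = 0.041), but the curcumin and control libraries nearly touched while combination and swimming lay far apart. The strata differed by 2.64 ± 0.44 (interaction adjusted p = 0.039), at 0.55 for curcumin over control and 3.19 for combination over swimming.

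Other genes of small p had smaller log2 fold changes. Slc15a3, a lysosomal transporter of histidine and small peptides, ranged over 121 to 129 CPM (median 124) with curcumin and 70.7 to 91.8 CPM (median 85.3) without, a log2 fold change of 0.59 ± 0.07 (adjusted p = 0.0028). Ly6a, the surface protein also called Sca-1, ranged over 89.8 to 135 CPM (median 99.1) with curcumin and 49.3 to 70.9 CPM (median 61.1) without (0.73 ± 0.09, adjusted p = 0.0029). Ly6e of the same family, known as an interferon-inducible gene, ranged over 378 to 483 CPM (median 424) with curcumin and 237 to 324 CPM (median 274) without (0.61 ± 0.08, adjusted p = 0.0061). Ly6c1, also of this family, stood at 0.80 ± 0.12 (adjusted p = 0.014). The Ly6 genes are close copies, and how reads shared between them were counted is not stated. Apol10b, of the apolipoprotein L family, ranged over 31.5 to 40.8 CPM (median 36.9) with curcumin and 14.7 to 23.6 CPM (median 21.3) without (0.83 ± 0.11, adjusted p = 0.0050). The arms of these 5 genes did not overlap.

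Among genes lower with curcumin, Rab6b, Prom2 and Spint1 were 3 of the 8 of smallest p. Rab6b, a small GTPase of the Golgi, was 22.8, 23.7 and 24.9 CPM in curcumin libraries and 28.9, 32.7 and 27.2 CPM in combination libraries, against 41.0, 43.4 and 37.8 CPM in control libraries and 51.6, 37.1 and 49.8 CPM in swimming libraries. No library with curcumin reached the lowest without, and the log2 fold change was -0.71 ± 0.09 (adjusted p = 0.0050). Prom2, a prominin of epithelial membrane protrusions, ranged over 31.7 to 42.3 CPM (median 35.5) with curcumin and 40.05 to 61.0 CPM (median 52.6) without (-0.54 ± 0.08, adjusted p = 0.0094). Spint1, an inhibitor of epithelial serine proteases such as matriptase, ranged over 62.9 to 81.6 CPM (median 70.2) with curcumin and 86.2 to 119 CPM (median 100.7) without (-0.48 ± 0.08, adjusted p = 0.017). Only the arms of Prom2 overlapped among these 3 genes. Krt18, a keratin of simple epithelia, ranged over 644 to 810 CPM (median 744) with curcumin and 843 to 977 CPM (median 933) without (-0.31 ± 0.06, adjusted p = 0.029), again with no overlap. It was the 1 member of 14 tested tumour epithelium genes that was called, against 2.11% of all genes called lower, and 9 of the 14 were negative (median -0.12).

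The other genes of small p that were lower have varied roles. Ltbp4, which anchors latent TGF-beta in the matrix, ranged over 118 to 135 CPM (median 125) with curcumin and 152 to 237 CPM (median 196) without (-0.63 ± 0.10, adjusted p = 0.014). Spry2, a feedback inhibitor of receptor tyrosine kinase signalling, ranged over 33.0 to 38.3 CPM (median 34.1) with curcumin and 42.9 to 57.2 CPM (median 45.5) without (-0.43 ± 0.07, adjusted p = 0.014). Tpt1, the translationally controlled tumour protein and one of the most abundant messages named here, ranged over 1469 to 1664 CPM (median 1581) with curcumin and 1911 to 2898 CPM (median 2173) without (-0.50 ± 0.08, adjusted p = 0.017). In these 3 genes too the arms did not overlap, and the highest value without curcumin of Spry2 and of Tpt1 lay far above the other 5. The transcription factor gene Mef2b showed the steepest fall by fold among genes of small p, at 0.885 to 1.39 CPM (median 1.07) with curcumin and 1.82 to 4.91 CPM (median 3.10) without (-1.57 ± 0.25, adjusted p = 0.014). The zinc finger gene Zfp866 fell by 0.35 ± 0.06 (adjusted p = 0.018), with overlapping arms.

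The largest decreases without overlap otherwise lay between -0.71 and -1.61. They were A3galt2 (-1.61 ± 0.32), an enzyme of glycolipid synthesis, Col11a2 (-1.03 ± 0.20), a collagen chain best known from cartilage, and Gzmc (-0.97 ± 0.19), a granzyme of cytotoxic lymphocytes whose family holds close copies. With them came Plekhg6 (-0.89 ± 0.20), Yjefn3 (-0.85 ± 0.20), Zscan2 (-0.80 ± 0.18) and St3gal5 (-0.76 ± 0.17), the synthase of ganglioside GM3. Khk (-0.72 ± 0.15), the fructose kinase, Tanc2 (-0.71 ± 0.14), a scaffold protein, and Spef1 (-0.71 ± 0.15), a microtubule protein of cilia, completed the group. All 10 had adjusted p between 0.027 and 0.037. Arms of 6 that did not overlap were found for 391 genes, 2.87% of those tested (216 higher, 1.58%, and 175 lower, 1.28%), and 249 of them were among the 547 called.

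Type I interferon genes formed the list with the most calls. Interferons alpha and beta signal through a receptor to transcription factors that bind an interferon-stimulated response element (ISRE) in the promoters of antiviral genes. Of 30 tested members, 19 were called higher with curcumin and 0 lower, against 1.9% of all genes called higher, and 29 had positive changes. The list's median log2 fold change was 0.42, nearly alike in the strata (0.45 for curcumin over control and 0.45 for combination over swimming). The list level, the mean centred log2 CPM of its members in a library, ran from 0.20 to 0.24 over the 6 libraries with curcumin and from -0.48 to 0.04 over the 6 without. Libraries with curcumin were all alike, and the spread lay in those without.

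The promoters of 4 called members are shown because they carry the letters of the ISRE. The core searched was GAAANNGAAA, or TTTCNNTTTC on the other strand, and both forms count. Each line gives 250 bases up to the annotated start site, on the gene's own strand from 5′ to 3′, from RefSeq on GRCm38.p6, with matches in capitals.
Ifit3 (chr19:34583279-34583528, plus strand): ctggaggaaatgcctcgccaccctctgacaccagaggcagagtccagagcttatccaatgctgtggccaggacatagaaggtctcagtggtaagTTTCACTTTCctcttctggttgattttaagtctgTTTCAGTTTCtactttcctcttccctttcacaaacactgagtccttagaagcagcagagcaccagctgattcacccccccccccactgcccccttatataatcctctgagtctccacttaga
Isg15 (chr4:156200819-156201068, minus strand): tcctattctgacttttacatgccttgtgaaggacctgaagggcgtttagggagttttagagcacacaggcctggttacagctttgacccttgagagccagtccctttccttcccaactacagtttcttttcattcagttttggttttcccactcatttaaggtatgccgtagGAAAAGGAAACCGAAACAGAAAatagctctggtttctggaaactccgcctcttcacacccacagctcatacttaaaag
Oas3 (chr5:120777660-120777909, minus strand): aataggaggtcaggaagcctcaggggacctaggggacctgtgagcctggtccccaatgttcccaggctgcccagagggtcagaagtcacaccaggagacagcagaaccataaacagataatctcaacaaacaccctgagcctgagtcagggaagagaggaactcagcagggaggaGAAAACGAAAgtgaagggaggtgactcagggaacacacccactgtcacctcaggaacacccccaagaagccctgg
Rsad2 (chr12:26456453-26456702, minus strand): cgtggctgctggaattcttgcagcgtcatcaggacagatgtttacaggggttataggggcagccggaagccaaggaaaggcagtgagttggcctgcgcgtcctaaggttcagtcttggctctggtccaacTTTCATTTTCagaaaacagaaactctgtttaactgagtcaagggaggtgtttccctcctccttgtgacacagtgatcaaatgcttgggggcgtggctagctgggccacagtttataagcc
The Isg15 window holds 3 overlapping matches in 1 run, Ifit3 holds 2, and Oas3 and Rsad2 hold 1 each. Within the 300 bases from 250 before to 50 after the start, such a match stood in 53.3% of the called list members with a promoter entry (8 of 15). It stood in 16.6% of all genes called higher (32 of 193), in 3.88% of those called lower (9 of 232) and in 3.88% of all tested genes with an entry. These shares describe letters in a window and say nothing of binding. Windows of the same length for Grem1 and Avpr1a held no match, and the one for Apol10b did.

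Oas2, Rsad2 and Cmpk2 had the largest changes of the list. Oas2, which makes the second messenger that activates RNase L on double-stranded RNA, was 101, 101 and 99.5 CPM in curcumin libraries and 113, 109.8 and 113 CPM in combination libraries, against 41.2, 60.5 and 73.9 CPM in control libraries and 62.0, 48.8 and 63.8 CPM in swimming libraries. The arms were far apart, and the log2 fold change was 0.86 ± 0.12 (adjusted p = 0.0070). Rsad2, the antiviral protein viperin, stood at 0.86 ± 0.15 (adjusted p = 0.017), and Oas3 at 0.55 ± 0.09 (adjusted p = 0.015). Cmpk2, a mitochondrial nucleotide kinase next to Rsad2 on chromosome 12, ranged over 52.5 to 63.2 CPM (median 59.5) with curcumin and 23.3 to 42.6 CPM (median 31.5) without (0.86 ± 0.12, adjusted p = 0.0103). Ifit2 and Ifit3, of the IFIT family of antiviral proteins, stood at 0.72 ± 0.12 and 0.69 ± 0.14, while the related Ifit1 missed the threshold. Trim30a, a ubiquitin ligase gene, ranged over 97.0 to 112 CPM (median 108) with curcumin and 60.3 to 89.8 CPM (median 69.9) without (0.58 ± 0.09, adjusted p = 0.014). The RNA helicase sensors Ddx58 (RIG-I, 0.46 ± 0.08), Ifih1 (MDA5, 0.50 ± 0.11) and Dhx58 (0.37 ± 0.09) were called too, as were the kinase gene Eif2ak2 (0.55 ± 0.09) and the transcription factor gene Irf7 (0.51 ± 0.10).

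Stat2 and Irf9, which carry the interferon signal to the nucleus, were not called. Stat2 had a positive change under the threshold and Irf9 was the 1 negative member, as the plot of the list shows. Isg15, the ubiquitin-like modifier, stood at 0.39 ± 0.09 (adjusted p = 0.037). The smallest called change was that of Parp14, at 0.28 ± 0.07 (adjusted p = 0.041). Of the members fixed for the list, Mx1 and Mx2 were not analysed here. The number of members called fell to between 2 and 4 when any 1 combination library was left out, to 13 without control 2, and to 0 with the combination libraries summed, while the median stayed between 0.38 and 0.47 in these and all leave-one-out fits.

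**Figure D3:**
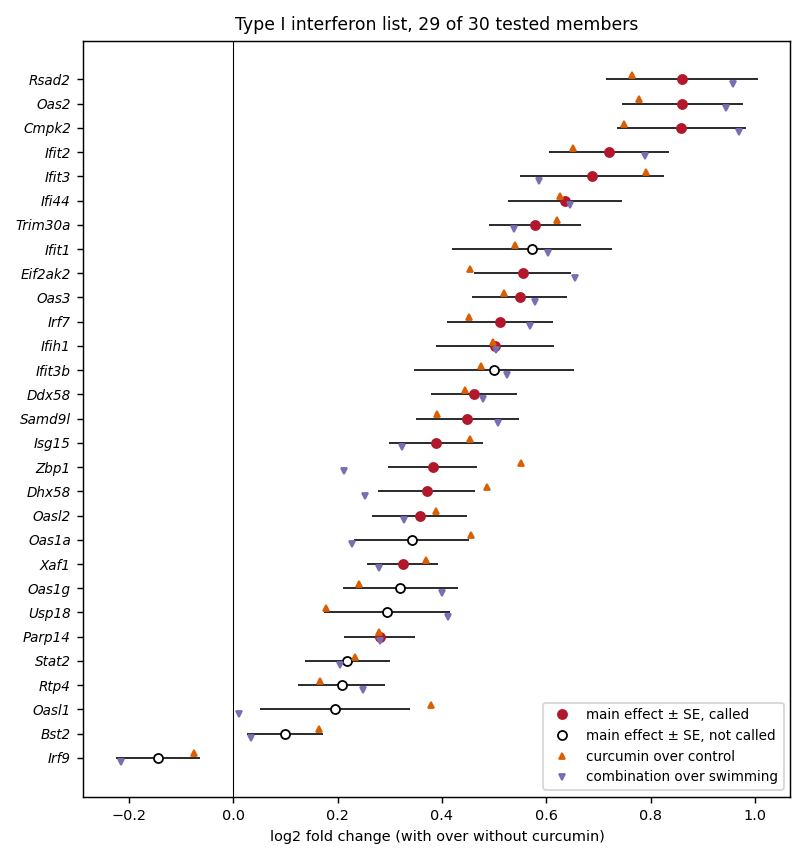
Log2 fold change with over without curcumin for 29 of the 30 tested type I interferon genes (circle with SE; red where called), with the values for curcumin over control (triangles up) and combination over swimming (triangles down). The genes above the bottom row all have positive main effects, and Irf9 at the bottom has a negative one.

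Interferon-gamma genes followed in part. This interferon comes from T and NK cells and induces GTPases, chemokines and antigen presentation. Of 24 tested members 4 were called higher and 0 lower, against 1.9% and 2.11% of all genes, 22 were positive, and the median was 0.29 (0.36 for curcumin over control, 0.15 for combination over swimming). Cxcl10, a chemokine for activated T cells, ranged over 41.4 to 65.0 CPM (median 53.1) with curcumin and 21.3 to 41.0 CPM (median 32.6) without (0.69 ± 0.13, adjusted p = 0.027). The GTPase genes Irgm2 (0.48 ± 0.09), Gbp5 (0.54 ± 0.14) and Irgm1 (0.30 ± 0.08) were called at adjusted p of 0.024, 0.044 and 0.046. Gbp5 stood at 0.79 for curcumin over control and 0.30 for combination over swimming. T cell markers gave 0 calls among 12 tested genes, with a summed level of 216 to 342 CPM with curcumin and 134 to 299 CPM without. NK cell markers gave 0 among 7, summing to 104 to 249.7 CPM with curcumin and 66.4 to 267 CPM without. The part of these cells in the interferon values was not tested.

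Matrix genes formed the next group. Fibroblasts of the tumour stroma make fibrillar collagens, the proteoglycans that bind them and matricellular proteins such as tenascin and thrombospondins. Of 26 tested genes of collagens and matrix, 9 were called higher and 1 lower, against 1.9% and 2.11% of all genes, and 23 were positive, with a median of 0.72. Combination over swimming had a median of 1.04, and curcumin over control one of 0.34, and the interaction called 1 member, Fmod (interaction adjusted p = 0.022), named after its value was seen. The list level ran from 0.031 to 0.545 with curcumin and from -0.83 to 0.026 without. Curcumin 1, at 0.031, lay close to controls 1 and 3 (0.009 and 0.026), and control 2 was the lowest, at -0.83.

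Tnc, the matricellular glycoprotein tenascin C, was 1131, 863 and 1017 CPM in curcumin libraries and 1672, 1704 and 1559 CPM in combination libraries, against 859, 465 and 659 CPM in control libraries and 768, 953 and 462 CPM in swimming libraries. Swimming 2 exceeded curcumin 2, so the arms overlapped, and the log2 fold change was 0.89 ± 0.18 (adjusted p = 0.029). Thbs2, thrombospondin 2, was 419, 362 and 392 CPM in curcumin libraries and 554, 552 and 555 CPM in combination libraries, against 295, 107 and 300.3 CPM in control libraries and 181, 228 and 118 CPM in swimming libraries. Its arms did not overlap (1.20 ± 0.25, adjusted p = 0.030). Vcan, the large proteoglycan versican, ranged over 56.5 to 78.1 CPM (median 65.8) with curcumin and 17.5 to 46.9 CPM (median 34.3) without (1.03 ± 0.21, adjusted p = 0.029), again apart. Col12a1, a collagen on the surface of fibrils, ranged over 678 to 1036 CPM (median 927) with curcumin and 307 to 715 CPM (median 472) without (0.91 ± 0.19, adjusted p = 0.032).

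Calls on the other matrix genes came with adjusted p of 0.034 to 0.046: Col6a3 (0.98 ± 0.22), Col5a1 (0.71 ± 0.16), Col5a2 (0.82 ± 0.21), the proteoglycan gene Bgn (0.72 ± 0.17) and Sparc (0.61 ± 0.14), a collagen-binding protein. The main fibrillar chain Col1a1 averaged 2175 CPM with curcumin and 1125 CPM without but missed the threshold (0.95, adjusted p = 0.055). The basement membrane collagen genes Col4a1 and Col4a2 stood at -0.05 and 0.04. Fn1, the gene of fibronectin, was lower: it averaged 8950 CPM with curcumin and 12930 CPM without (-0.53 ± 0.13, adjusted p = 0.040). With any 1 combination library left out 0 members of this list were called, without control 2 there were 6, and with the combination libraries summed there were 0, at medians of 0.70 to 0.71, 0.61 and 0.64.

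Stromal cell markers were in part higher in the same libraries as the matrix genes. The pericyte and smooth muscle level was highest in the 3 combination libraries (0.38 to 0.40), as the matrix level was (0.51 to 0.55). The fibroblast level was 0.10 to 0.27 in curcumin libraries and 0.05 to 0.25 in combination libraries, and the highest of all 12 was control 3 (0.40), whose matrix level was 0.026. All 10 fibroblast markers in the table summed to 445 to 634 CPM with curcumin and 344 to 493 CPM without, and the 11 of pericytes and smooth muscle to 477 to 559 CPM with curcumin and 275 to 465 CPM without. Of 10 tested fibroblast markers 2 were called higher, Ly6c1 and Pdpn, and 1 lower, Scara5, against 1.9% and 2.11% of all genes. Pdpn, podoplanin, ranged over 23.0 to 56.5 CPM (median 30.6) with curcumin and 10.9 to 19.0 CPM (median 16.8) without (1.09 ± 0.19, adjusted p = 0.019). Scara5, a scavenger receptor that binds ferritin, was 12.1, 5.29 and 10.6 CPM in curcumin libraries and 3.15, 4.30 and 4.49 CPM in combination libraries, against 23.1, 40.4 and 30.1 CPM in control libraries and 25.7, 4.49 and 36.9 CPM in swimming libraries. Apart from swimming 2, each library without curcumin was above each with it (-2.09 ± 0.40, adjusted p = 0.027). Pdgfrb, the PDGF receptor of pericytes and fibroblasts, was the 1 call among 10 tested pericyte and smooth muscle genes (0.66 ± 0.17, adjusted p = 0.048), and all 10 were positive. How far stromal content carried the matrix values was not tested.

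Basement membrane and crosslinking genes went both ways. Of 14 laminins and partners, Lamc3 and Nid1 were called higher and Lama5 and Lamb2 lower, against 1.9% and 2.11% of all genes. The list median was 0.37. Nid1, nidogen, which links laminin to collagen IV, ranged over 132 to 185 CPM (median 161) with curcumin and 70.1 to 147 CPM (median 104) without (0.59 ± 0.13, adjusted p = 0.037). Lama5 ranged over 826 to 1040.0 CPM (median 909) with curcumin and 946 to 1350.0 CPM (median 1234) without (-0.41 ± 0.09, adjusted p = 0.034). Lamb2 ranged over 95.1 to 116 CPM (median 108) with curcumin and 119 to 199 CPM (median 132) without (-0.44 ± 0.11, adjusted p = 0.046). The alpha 5 and beta 2 chains are made by epithelia and vessels. Among 16 crosslinking and processing genes the 1 call was Loxl2, a lysyl oxidase (0.68 ± 0.15, adjusted p = 0.031). Among 16 metalloproteinases and inhibitors 0 passed, and the smallest p belonged to Mmp9 (0.86, adjusted p = 0.061) and Mmp11 (-0.64, adjusted p = 0.065).

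The TGF-beta superfamily signals through ligands such as TGF-beta and activin, antagonists outside the cell and SMAD proteins within it. Of 25 tested genes, Grem1, Tgfb2 and Inhba were called higher and Smad3 lower (1.9% and 2.11% of all genes), 13 were positive and the median was 0.04. Tgfb2, a TGF-beta ligand, ranged over 13.1 to 32.4 CPM (median 19.8) with curcumin and 6.83 to 15.1 CPM (median 9.99) without (0.93 ± 0.19, adjusted p = 0.029). Inhba, the subunit of activin A, ranged over 245 to 430.3 CPM (median 326) with curcumin and 131 to 264 CPM (median 213) without (0.66 ± 0.14, adjusted p = 0.031). Smad3, which carries the TGF-beta signal to the nucleus, ranged over 238 to 309 CPM (median 244) with curcumin and 278 to 464 CPM (median 396) without (-0.55 ± 0.14, adjusted p = 0.044). The arms overlapped for each of these 3 genes.

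Wnt and mesenchymal genes had calls in the higher direction alone. Of 16 Wnt genes 3 were called higher, against 1.9% of all genes, 14 were positive and the median was 0.33. The ligand gene Wnt5a ranged over 22.2 to 39.5 CPM (median 29.9) with curcumin and 7.40 to 20.95 CPM (median 13.1) without (1.15 ± 0.22, adjusted p = 0.027), in near equal measure in the strata (1.10 and 1.20). Dkk3, a secreted protein of the Dickkopf family, stood at 0.92 ± 0.19 (adjusted p = 0.029) and Axin2, a feedback gene of the canonical pathway, at 1.09 ± 0.28 (adjusted p = 0.0495), on a median of 6.12 CPM with curcumin and 3.07 CPM without. Of 11 mesenchymal transition genes the cadherin gene Cdh11 (1.25 ± 0.28), the repressor gene Zeb1 (0.53 ± 0.12) and the homeobox gene Prrx1 (0.99 ± 0.26) were called higher, at adjusted p of 0.036, 0.036 and 0.0495, again against 1.9% of all genes. The list's median was 0.07, and these 3 genes are also expressed by fibroblasts.

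**Figure D4:**
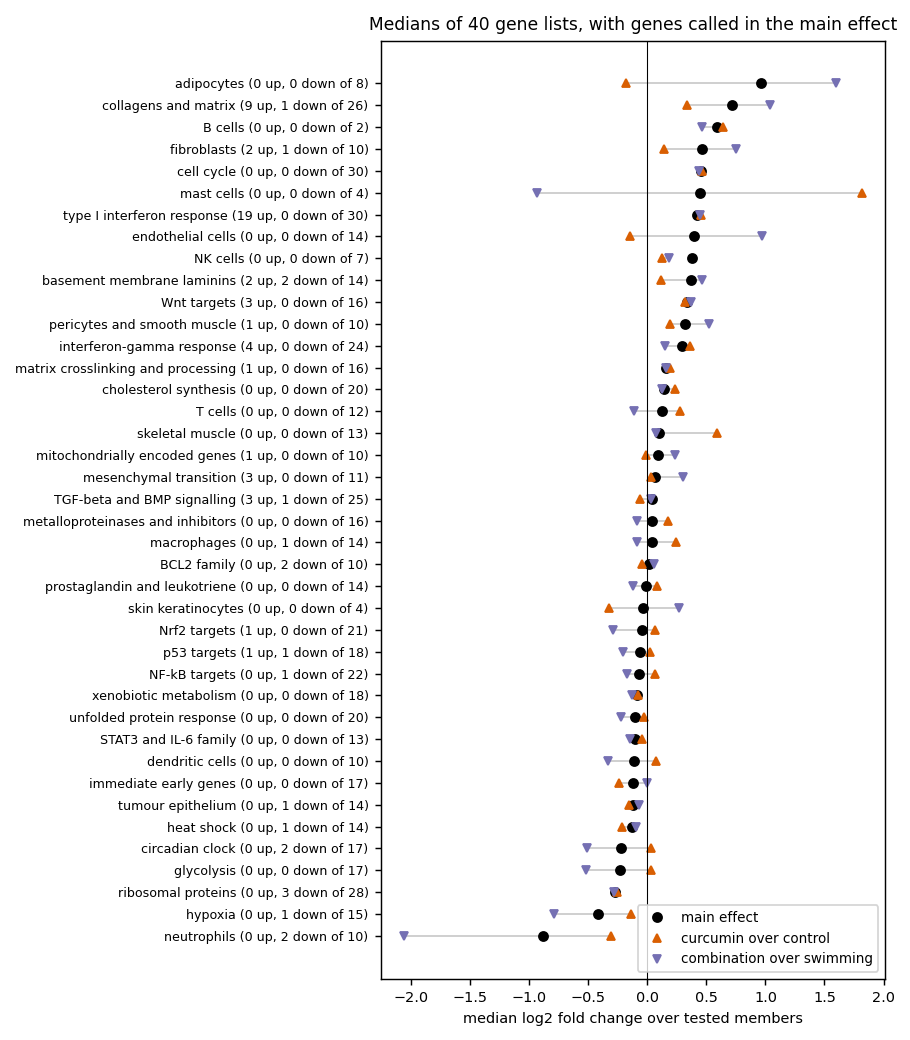
Median log2 fold change over the tested members of each of 40 gene lists for the main effect (circles), curcumin over control (triangles up) and combination over swimming (triangles down), with the number of members called up and down. The circles of the type I interferon and cell cycle lists lie close to both triangles, while those of adipocytes, mast cells, endothelial cells and neutrophils lie between triangles that are far apart.

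Among lists with decreases, that of ribosomal proteins had negative values in every one of its 28 tested genes, with a median of -0.27 (-0.25 for curcumin over control and -0.28 for combination over swimming). Of these, 3 were called lower, against 2.11% of all genes: Rps15 (-0.38 ± 0.09), Rpl5 (-0.38 ± 0.09) and Rpl7 (-0.33 ± 0.08), at adjusted p of 0.037, 0.041 and 0.044. Rpl5, of the large subunit, ranged over 808 to 891 CPM (median 850.1) with curcumin and 919 to 1399 CPM (median 1106) without. The ribosomal list level ran from -0.269 to -0.022 with curcumin and from -0.073 to 0.481 without, so the arms overlapped. Control 1 (-0.073) lay below curcumin 1 (-0.044) and curcumin 2 (-0.022), and control 2 was the highest, at 0.481. Ribosomal messages are abundant and can also move with RNA quality. The share of counts from mitochondrial transcripts was 4.55 ± 0.989% with curcumin and 4.14 ± 0.682% without (SD, n = 6 each), a difference of 0.401 points. By group it was 3.76% in curcumin and 5.33% in combination libraries, against 3.68% in control and 4.60% in swimming libraries, and the level of the mitochondrially encoded genes was 0.25 to 0.67 in combination libraries and at most 0.092 in the other 9. An exact permutation test within the strata (two-sided, 400 arrangements) gave p = 0.23, and 0.005 is the smallest p it can give. mt-Nd6 was the 1 call among 10 tested mitochondrially encoded genes, against 1.9% of all genes called higher (1.23 ± 0.31, adjusted p = 0.045). It lies on the minus strand of the mitochondrial genome, and whether the counting used strand is not given.

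Apoptosis genes of the BCL2 family include both killers and protectors, and 1 of each was lower, 2 of 10 tested members against 2.11% of all genes. Bcl2l11 (BIM), which triggers apoptosis, was 113, 106 and 109 CPM in curcumin libraries and 95.1, 74.2 and 88.1 CPM in combination libraries, against 117, 175 and 122 CPM in control libraries and 149, 156 and 175 CPM in swimming libraries. Its arms did not overlap, but curcumin 1 and control 1 were close (-0.61 ± 0.13, adjusted p = 0.029). Bcl2l1 (BCL-XL), which protects, ranged over 80.2 to 86.6 CPM (median 84.6) with curcumin and 90.1 to 127 CPM (median 109) without (-0.36 ± 0.08, adjusted p = 0.031). The other 8 tested members were not called. Of the 10 tested, 6 were positive and 4 negative, with a median of 0.016. Of 18 p53 targets, Zmat3, an RNA-binding protein gene, was called higher (0.48 ± 0.11, adjusted p = 0.039) and Gadd45a, a growth arrest gene, lower (-1.13 ± 0.27, adjusted p = 0.041), and 13 were negative. Over all genes 1.9% were called higher and 2.11% lower.

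Clock and hypoxia genes held 3 calls, all lower, and glycolysis genes held 0, against 2.11% of all genes called lower. The interaction called 0 members of the 3 lists, so a difference between the strata was not shown for any of their genes. Per1, a repressor of the clock, was 49.4, 47.1 and 44.5 CPM in curcumin libraries and 80.3, 86.2 and 70.4 CPM in combination libraries, against 31.7, 85.9 and 71.2 CPM in control libraries and 237, 152 and 248 CPM in swimming libraries. The 3 swimming libraries were the high ones, and the curcumin and control values overlapped. The log2 fold change was -0.93 ± 0.24 (adjusted p = 0.047), with strata of -0.42 and -1.43 (interaction adjusted p = 0.37). Nr1d1 (REV-ERB alpha) was also called lower (-0.58 ± 0.15, adjusted p = 0.0495), and 12 of 17 clock genes were negative. The clock medians were 0.03 for curcumin over control and -0.51 for combination over swimming. Of 15 hypoxia genes 13 were negative and 1 was called, the histone demethylase gene Kdm3a (-0.50 ± 0.10, adjusted p = 0.029). The hypoxia medians were -0.13 for curcumin over control and -0.79 for combination over swimming. All 17 glycolysis genes were negative and 0 were called. Pfkl, a phosphofructokinase gene, had the smallest p (-0.50, adjusted p = 0.061), followed by Hk2, a hexokinase gene (-0.44, adjusted p = 0.082). The glycolysis medians were 0.03 for curcumin over control and -0.52 for combination over swimming.

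Cell cycle genes gave 0 calls among 30, although 29 were positive with a median of 0.46 (0.46 and 0.44 in the strata). Ccne1, cyclin E1, ranged over 7.71 to 11.4 CPM (median 9.64) with curcumin and 4.20 to 8.24 CPM (median 6.53) without (0.57, adjusted p = 0.058), and the replication licensing gene Cdc6 stood at 0.70 (adjusted p = 0.075). The list level was 0.18 to 0.32 with curcumin and -1.05 to 0.13 without, with the lowest in control 2. Without control 2 the median was 0.31 and 1 member was called.

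Pathways for which curcumin is known in cultured cells were called at about the share of all genes (4.01%). Of 22 NF-kB targets (4.55% called) 16 were negative and 1 was called, Relb, an NF-kB subunit (-0.36 ± 0.09, adjusted p = 0.0495), with a median of -0.07. The strata had NF-kB medians of opposite sign, 0.07 for curcumin over control and -0.18 for combination over swimming. Of 21 Nrf2 targets (4.76% called) 12 were negative and 1 was called, Me1, malic enzyme, which was higher (0.38 ± 0.09, adjusted p = 0.045) with strata of 0.61 and 0.15. The Nrf2 list's medians were -0.05 for the main effect, 0.07 for curcumin over control and -0.29 for combination over swimming. Xenobiotic metabolism gave 0 calls among 18, led by Gstt1 (-0.63, adjusted p = 0.082) and Nfe2l2, the Nrf2 gene itself (-0.19, adjusted p = 0.12). The STAT3 and IL-6 family gave 0 among 13, led by Bcl6 (-0.42, adjusted p = 0.055) and Il6ra (-0.39, adjusted p = 0.055). Prostaglandin and leukotriene genes gave 0 among 14, though the interaction called 1 of them. The smallest p in the main effect belonged to Ptges3 (0.35, adjusted p = 0.069) and Alox15 (-1.47, adjusted p = 0.15), the second at most 1.76 CPM in any library. These missed thresholds do not show that the pathways were unchanged.

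Stress and lipid lists held 1 call. Of 14 heat shock genes Hspa1a was called lower (-2.41 ± 0.63, adjusted p = 0.0495). It read 1.99, 0.719 and 2.38 CPM in curcumin libraries and 1.03, 1.94 and 0.822 CPM in combination libraries, against 1.51, 30.1 and 3.03 CPM in control libraries and 5.36, 3.64 and 6.52 CPM in swimming libraries. Control 2 stood far above the rest, control 1 lay among the libraries with curcumin, and the near-identical copy Hspa1b can share its reads. The unfolded protein response gave 0 calls among 20, led by Herpud1 (-0.24, adjusted p = 0.070) and Trib3 (-0.94, adjusted p = 0.074). Immediate early genes gave 0 among 17, led by Jun (-0.38, adjusted p = 0.061) and Dusp1 (-0.83, adjusted p = 0.097), and cholesterol synthesis gave 0 among 20, led by Hmgcs1 (0.41, adjusted p = 0.12) and Hsd17b7 (0.43, adjusted p = 0.13). Over all 40 lists 70 of 606 different tested genes were called, against 4.01% of all genes tested, and the lists were not drawn at random from the genome.

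Myeloid markers held 3 calls, all lower, against 2.11% of all genes called lower. All 10 tested neutrophil markers were negative and 2 were called. Their medians were -0.88 for the main effect, -0.31 for curcumin over control and -2.06 for combination over swimming. Ly6g, Mpo, Elane and Camp fell under the filter. Summed counts with and without curcumin were 11 and 41 for Ly6g and 24 and 41 for Camp. They were 37 and 14 for Mpo and 9 and 9 for Elane. Padi4, the enzyme that citrullinates histones in neutrophil traps, ranged over 276 to 378 CPM (median 323) with curcumin and 363 to 439 CPM (median 410) without (-0.35 ± 0.07, adjusted p = 0.029). In combination libraries it averaged 285.3 CPM, where all 14 neutrophil markers in the table summed to 337.9 to 364.5 CPM. Whether Padi4 RNA came from neutrophils was not tested. Retnlg, resistin-like gamma, ranged over 0.379 to 2.29 CPM (median 1.26) with curcumin and 2.24 to 10.9 CPM (median 4.69) without (-2.11 ± 0.44, adjusted p = 0.029). It was 1.99, 2.29 and 1.74 CPM in curcumin libraries, close to controls 1 and 3 (2.24 and 2.51 CPM), while control 2 read 10.9 CPM. Its strata were -1.38 for curcumin over control and -3.04 for combination over swimming. Of 14 macrophage markers Spp1, osteopontin, was called lower. It was 1207, 1193 and 1180.0 CPM in curcumin libraries and 1571, 1513 and 1570.0 CPM in combination libraries, against 1558, 2057 and 1502 CPM in control libraries and 1908, 2340.0 and 1575 CPM in swimming libraries. Carcinoma cells make osteopontin too, and the curcumin libraries were the lowest (-0.42 ± 0.10, adjusted p = 0.040).

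Among lymphoid, dendritic and mast cell markers 0 genes were called. Thy1 (0.55, adjusted p = 0.076) and Cd4 (-0.58, adjusted p = 0.54) had the smallest p of the T cell genes, and Gzma (1.02, adjusted p = 0.19) and Nkg7 (0.56, adjusted p = 0.24) of the NK cell genes. For B cells, Jchain (0.67, adjusted p = 0.36) and Pax5 (0.52, adjusted p = 0.48) were the 2 tested. For dendritic cells, Ccr7 (-0.79, adjusted p = 0.096) and Flt3 (-0.85, adjusted p = 0.29) led. Mast cell genes Mcpt4 (1.15, adjusted p = 0.35) and Cpa3 (0.41, adjusted p = 0.70) had opposite signs in the strata, at 2.58 and -0.72 for Mcpt4 and 1.60 and -1.14 for Cpa3.

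Vessel, fat, muscle and skin markers gave 0 calls in the main effect. Endothelial markers gave 0 calls among 14, though the interaction called 1 of them. Their medians were -0.14 for curcumin over control and 0.97 for combination over swimming. Kdr, the main VEGF receptor, stood at 0.79 (adjusted p = 0.060) and Emcn, endomucin, at 0.81 (adjusted p = 0.092), with 1.37 and 1.62 for combination over swimming and 0.23 and -0.00 for curcumin over control. Adipocyte markers gave 0 among 8, led by Pck1 (2.23, adjusted p = 0.069) and Cidec (1.92, adjusted p = 0.10), each at most 2.02 CPM in any library. Their list level was 1.25 to 1.33 in the 3 combination libraries and at most 0.23 in the other 9. Skeletal muscle genes gave 0 among 13, led by Pvalb (adjusted p = 0.10) and Myh4 (1.97, adjusted p = 0.14). The muscle level was 1.59, 1.55 and 1.55 in curcumin libraries and -0.54, -0.54 and -0.39 in combination libraries, against 0.69, -3.26 and 1.93 in control libraries and -0.39, -2.44 and 0.25 in swimming libraries. Skin keratinocyte genes gave 0 among 4, led by Krt14 (0.73, adjusted p = 0.087) and Sbsn (-0.55, adjusted p = 0.23). The part of fat, muscle or skin in the gene results was not tested.

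**Figure D5:**
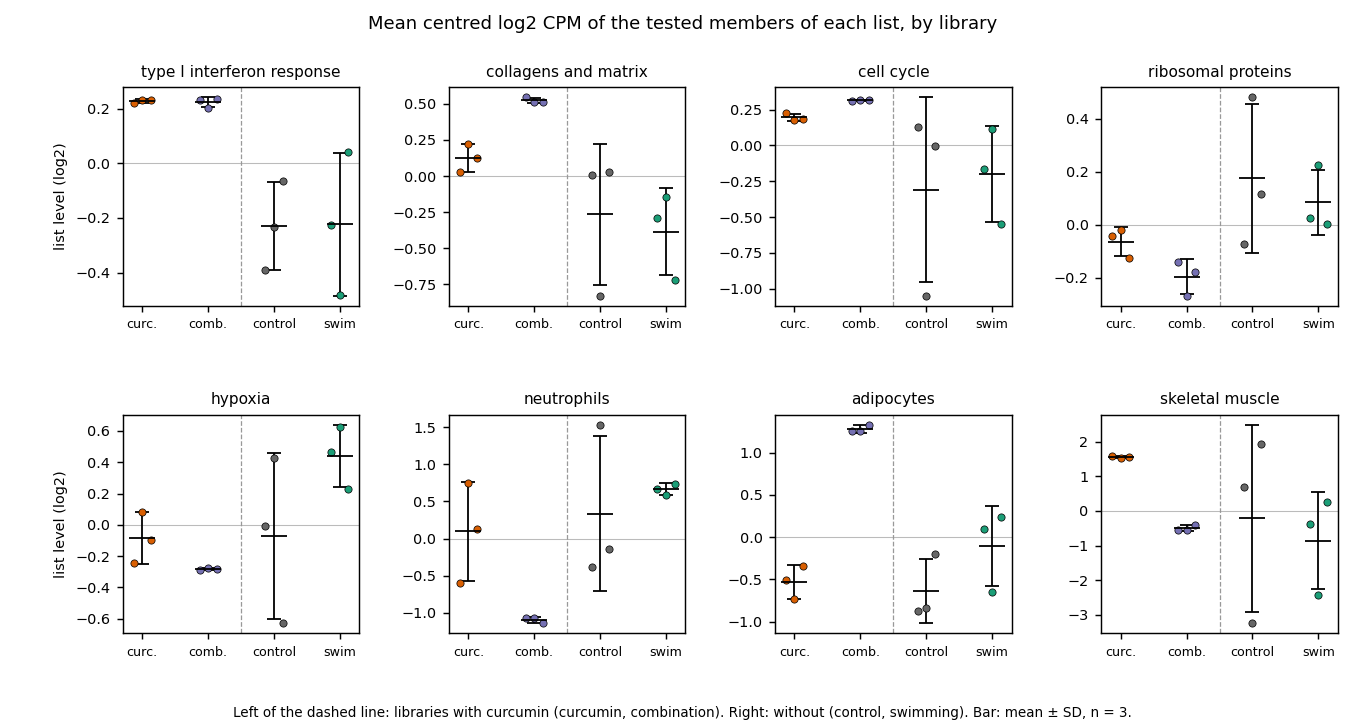
List level, the mean centred log2 CPM of tested members, in each of the 12 libraries for 8 lists, with mean and SD of the 3 libraries of each group; curcumin and combination stand left of the dashed line, control and swimming right of it. The interferon level separates the arms, the adipocyte level separates the combination libraries from the other 9, and the muscle level spans -3.26 to 1.93 within control libraries.

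For 19 genes the interaction test found that curcumin's difference was not the same with and without swimming, and the 5 of smallest p had main effects that were not called. Ptprb, the endothelial phosphatase that acts on the Tie2 receptor, was 25.3, 18.2 and 22.9 CPM in curcumin libraries and 32.8, 28.9 and 32.7 CPM in combination libraries, against 27.0, 28.1 and 30.8 CPM in control libraries and 12.5, 11.8 and 13.6 CPM in swimming libraries. It was lowest in swimming libraries, and the strata went apart, at -0.37 for curcumin over control and 1.31 for combination over swimming (interaction 1.69 ± 0.18, adjusted p = 0.0082). Erbb3, a receptor of neuregulins, stood at -0.51 and 0.86 (1.37 ± 0.19), and Gbe1, the glycogen branching enzyme, at 0.43 and -0.82 (-1.25 ± 0.17). Aspa, aspartoacylase, was 7.51, 6.90 and 7.96 CPM in combination libraries and at most 2.30 CPM in the other 9 (3.04 ± 0.42). Cwc22, a splicing factor gene with copies in the genome whose shared reads may count for any of them, was 186, 237 and 227 CPM in curcumin libraries and 45.1, 42.2 and 45.2 CPM in combination libraries, against 47.9, 85.6 and 139 CPM in control libraries and 148, 162 and 119 CPM in swimming libraries. Its strata were 1.25 and -1.69 (-2.94 ± 0.39), and these last 4 genes shared an adjusted p of 0.022.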

How the data were processed

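Whole read counts and FPKM values for 21899 genes in 12 libraries were taken from the authors' deposited gene table. Counts were tested, and FPKM from the authors' deposited table served only to check that count, gene length and library total gave the same value (184877 of 184877 values above 0, relative tolerance 1e-05). The submitters' processing notes name cutadapt, TopHat2, HISAT2, HTSeq 0.9.1, DESeq 1.30.0 and GRCm39, while the labels' protocol names HISAT2 2.0.5 and mm9. The build is thus stated in 2 ways, and only 501 of 21782 gene starts match GRCm38, so gene coordinates are given as the table holds them. Whether counting used strand, and how reads shared by gene copies were counted, is not given in the sources used here. Reads without molecular identifiers are not independent molecules.

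Groups were taken from sample titles. Genes were kept by filterByExpr over the 4 groups (minimum count 10, minimum total 15), scaled by TMM and fitted with edgeR 4.0.16 under R 4.3.3 by quasi-likelihood F-tests. The model held curcumin and swimming and left 9 residual degrees of freedom. The interaction model left 8, and values for the strata came from a fit of the 4 group means to all libraries. P-values were Benjamini-Hochberg adjusted over 13638 genes. CPM are TMM-scaled, except those of Epcam and the summed marker levels, which were scaled by library total alone. List levels use log2 CPM with a prior count of 2, and errors of fold changes are standard errors.

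The comparison and the 40 gene lists (665 entries, 660 in the table, 614 tested) were chosen with earlier results of these data known. Named genes are called genes with ordinary symbols and at least 1 CPM in the higher arm: the 12 largest changes without overlap and the 8 of smallest p per direction, up to 4 called members a list (otherwise the 1 or 2 of smallest p) and the 5 interaction genes of smallest p. The values of 1 interferon list member are not reported here, though it counts in the list's totals. Further list members were named after their values were seen. On simulated counts for the main effect (13515 genes, 200 changed) the pipeline recovered 49.3%, 64.2% and 89.4% of changes of 1.5, 2 and 4-fold, with 4 false calls. That simulation gave each gene 1 dispersion, so it does not measure power where groups differ in spread. Alternatives were other scaling, filters and models, DESeq2 1.42.0, limma 3.58.1 voom with a weight per group, leaving out each library, each stratum alone, a replicate block, a 1.5-fold test and summed combination libraries. After the data were seen, 2 alternatives with summed libraries were added. Promoters are from RefSeq (GRCm38.p6), with an entry for 10797 of 13636 tested symbols.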

Additional observations from a re-analysis of the deposited data

Results flagged for a closer look

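In 18 of 314 groups of 6 libraries examined, 1 library lay far from its nearest neighbour relative to the whole range, past Dixon's 95% critical value. Chance flags about 1 in 20 such groups. Among libraries with curcumin, the gap over the range of log2 CPM was 0.746 for A3galt2, 0.733 for Khk, 0.715 for Ly6a, 0.705 for Gzmc, 0.686 for Irgm1, 0.643 for Dkk3 and 0.637 for Zscan2. Among libraries without curcumin it was 0.744 for Scara5, 0.742 for Spry2, 0.715 for Hsd17b7, 0.669 for Hmgcs1, 0.667 for Pdgfrb, 0.666 for Tpt1, 0.653 for Irgm2 and 0.645 for Ccne1. For list levels among libraries without curcumin it was 0.84 for the STAT3 and IL-6 family, 0.81 for cholesterol synthesis and 0.663 for heat shock.

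Besides Fmod, which was named after its value was seen, the effect of curcumin differed between still and swimming mice by the interaction test in 6 named genes. The differences, combination over swimming minus curcumin over control on the log2 scale, were 1.69 for Ptprb, -2.94 for Cwc22, 1.37 for Erbb3, 3.04 for Aspa, -1.25 for Gbe1 and 2.64 for Aplnr.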

How the results depend on the processing

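The main comparison called 547 genes (259 higher, 288 lower) and the interaction 19. All 547 kept their sign in each alternative in which they were tested, but the count did not hold. With 1 library left out it ran from 15 to 2580 in all, from 13 to 1268 higher and from 2 to 1312 lower, and the interaction count from 0 to 455 (455 without control 2). Without control 1 and control 3 it was 2580 and 1015, without control 2 271, without curcumin 1, 2 and 3 353, 173 and 26, without swimming 1, 2 and 3 22, 433 and 167, and without combination 1, 2 and 3 21, 17 and 15. RLE scaling gave 550, no filter 528 and a mean count of at least 50 gave 598, with interaction counts of 34, 40 and 32. Without the swimming covariate 359 were called (189 higher, 170 lower), and with 4 group means 903 (444 and 459). DESeq2 called 1674 (794 and 880; interaction 217), and voom with group weights 2415 (1313 and 1102; interaction 36). The stratum with swimming alone gave 2728 (1475 and 1253), and the stratum without gave 0 (0 and 0; 931 at unadjusted p under 0.05 in edgeR).

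A test against 1.5-fold gave 2 (2 higher, 0 lower), as did summing the combination libraries (2 and 0) and doing so without control 2 (2 and 0), while summing both the combination and the curcumin libraries gave 0 (0 and 0; 931 at unadjusted p under 0.05). Summing leaves 1 sample in a group, assumed to vary like the others. The cause of these shifts was not tested beyond the fewer samples that leaving out or summing gives. Replicate numbers did not pair the samples: correlations of same-numbered deviations ran from -0.251 to 0.165, with 2 of 18 over 0.1. With the replicate block 87 genes were called (59 higher, 28 lower) and 5 in the interaction. Uncalled genes changed sign in a few fits: Cpa3 (from -0.11 to 0.87 with 1 library left out, -1.14 in the stratum with swimming), Mcpt4 (-0.72) and Jchain (-0.17) there, and Pax5 (-0.16), Cidec (-1.84) and Emcn (-0.0042) in the stratum without. At these depths genes near 1 CPM have few reads, and their changes are the least precise.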
